A study of Rattus norvegicus with 19 samples.

Results

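Stem Leydig cells, the mesenchymal precursors in the testis from which testosterone-producing Leydig cells arise, were set against every other group of a rat expression study, so that a gene counted as particular to them only where it differed from later Leydig cells and from stem cells of bone alike. Affymetrix arrays of Sprague-Dawley rat cells covered stem Leydig cells (5 arrays), progenitor Leydig cells (3 arrays), immature Leydig cells (4 arrays), adult Leydig cells (4 arrays) and bone stem cells (3 arrays). The labels name no treatment, genotype, mutation or transgene in any group. How old the rats were, how the cells were isolated and whether they were cultured is not given in the sources used here. Such differences and the groups themselves cannot be told apart. Nothing in the labels ties the arrays of a group to different animals or cultures. The p-values below therefore refer to array-to-array spread, part of which may be technical.

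The genes were chosen by comparing the 5 stem Leydig arrays with the other 14 on the scale log2(signal + 16), where the signal is the scaled brightness of a gene's probe set and 16 is a pseudocount that damps the noise of dim probe sets. Of 14217 genes, 2472 (17.4%) had their highest group mean in stem Leydig cells and 3331 (23.4%) had their lowest there. A gene was called where all 4 differences, stem Leydig minus each other group, had the same sign and the largest of the 4 limma p-values stayed under 0.05 after Benjamini-Hochberg adjustment over 31042 probe sets. By this test 375 genes (2.64%) were higher and 333 (2.34%) were lower in stem Leydig cells than in all 4 other groups. The difference to the nearest of the 4 groups is called the margin here, is given in log2 units with its standard error (SE), and understates the fold of a dim gene.

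Stem Leydig cells are spindle-shaped cells of the testis interstitium that can divide and, under luteinizing hormone and locally made growth factors, can enter the Leydig lineage. They are described as bearing the platelet-derived growth factor receptor Pdgfra and as lacking the luteinizing hormone receptor Lhcgr and the steroid enzyme Hsd3b1. Progenitor and immature Leydig cells are the intermediate stages, and adult Leydig cells make testosterone from cholesterol under the control of luteinizing hormone.

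The markers of the lineage met that description in part. Lhcgr had signals of 11.7, 9.3, 14.4, 15.4 and 9.2 on the stem Leydig arrays and of 12.3 to 15.9 on the bone stem arrays, while the later Leydig arrays lay between 1581.5 and 2518. Hsd3b1 had 5.6, 13.1, 20.6, 7 and 14.7 on the stem Leydig arrays, against 2181.7 to 5492.6 on the later Leydig arrays and 21.2 to 87.5 on the bone stem arrays. Neither gene was called (Hsd3b1 limma adjusted p = 0.146), although for Hsd3b1 every stem Leydig array lay below every bone stem array. So both genes of the mature lineage were near the bottom of the scale in stem Leydig cells. Star, which carries cholesterol into mitochondria, was the exception, with 242.9, 1445.5, 391.1, 657.2 and 961.1 on the stem Leydig arrays and 580.1 to 1448.8 on the progenitor arrays. These 2 groups overlapped, and bone stem replicates 2 and 3 had 15.9 each while replicate 1 had 441.7.

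Pdgfra lay between the other groups, with a mean signal of 778 ± 195 (SD, n = 5) in stem Leydig cells, 1953 in progenitor, 2086 in immature and 1865 in adult Leydig cells and 413 in bone stem cells. The gonadal regulators Gata4 and Nr5a1 were also intermediate. Gata4 averaged 233 ± 28.3 (SD, n = 5) in stem Leydig cells, 560 to 750 in the later stages and 21.6 in bone stem cells. Nr5a1, which switches on steroid genes, averaged 77.4 ± 10.7 in stem Leydig cells, 719 to 1080 in the later stages and 8.20 in bone stem cells. Thy1, a surface protein of many mesenchymal cells, averaged 2040 ± 288 in stem Leydig cells, 35.1 to 97.5 in the later stages and 3174 in bone stem cells. Nr2f2, a nuclear receptor of interstitial precursors, averaged 977 ± 149 in stem Leydig cells, 714 to 1052 in the later stages and 282 in bone stem cells. For each of these 5 genes at least 1 group had a higher mean than stem Leydig cells and at least 1 had a lower mean, and none was called.

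Gli1, Tcf21 and Lifr, which are named as markers of Leydig precursors, were dim in stem Leydig cells. The hedgehog target Gli1 had 1.4 to 10 on the stem Leydig arrays and up to 368.8 on the progenitor arrays. The transcription factor Tcf21 averaged 44.0 in stem Leydig cells against 317 in progenitor, 344 in immature and 77.3 in adult Leydig cells and 9.13 in bone stem cells. The leukemia inhibitory factor receptor Lifr had 7.8 to 15.7 on the stem Leydig arrays, 47.7 to 117.2 on the later Leydig arrays and 5.8 to 12.5 on the bone stem arrays. Mki67, a marker of dividing cells, averaged 160 in stem Leydig cells, 408 in progenitor, 265 in immature and 32.2 in adult Leydig cells and 357 in bone stem cells. None of these 4 genes was called. In the testosterone synthesis list, 0 of 10 measured genes were called in either direction. The median of the list, stem Leydig minus the mean of the other groups, was -2.39 against -0.06 over all genes. A call also needed a difference from bone stem cells, so its absence does not mean equal levels in the later stages. With bone stem cells left out of the comparison, Hsd3b1 and Lhcgr were called lower.

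The arrays shared their trimmed mean signal but not their distribution, with medians between 18.9 and 36.6 and 29.1% to 47.3% of probe sets under a signal of 16. Immature replicate 4 correlated better with the progenitor arrays (mean r = 0.972) than with its own group (mean r = 0.959, across probe sets), and progenitor replicate 3 had a 3' to 5' ratio of 6.35 for beta-actin. Without these 2 arrays 371 genes were called higher and 345 lower. The same ratio ran from 1.03 to 1.84 over the stem Leydig arrays and from 2.38 to 2.95 over the bone stem arrays, a difference in RNA quality whose part in the results was not tested. The median absolute log2 difference between bone stem replicates 2 and 3 was 0.0643, the smallest of all replicate pairs, and between immature replicates 2 and 3 it was 0.0894. With each of these pairs averaged into 1 array, 274 genes were called higher and 235 lower.

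For most called genes bone stem cells came closest, a share that was not counted over all genes. Bone stem cells were the nearest group for 229 of the 375 higher genes (61.1%) and for 187 of the 333 lower genes (56.2%). Progenitor cells, the next Leydig stage, were nearest for 60 higher and 56 lower genes. Margins ran from 0.40 to 4.32 with a median of 0.93 for the higher genes, and from 0.33 to 3.75 in size with a median of 0.86 for the lower genes. All 4 differences reached at least 2-fold in 163 higher and 126 lower genes. The threshold fell between Mdfi (margin 0.50 ± 0.14, adjusted p = 0.0492) and Dock4 (0.88 ± 0.25, adjusted p = 0.0507) on the higher side. On the lower side it fell between Rhoh (-0.72 ± 0.20, adjusted p = 0.0498) and Surf2 (-0.51 ± 0.14, adjusted p = 0.0503).

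Over all 14217 genes, the lowest stem Leydig array lay above the highest of the other 14 arrays in 548 genes (3.85%), and the highest stem Leydig array lay below the lowest of the others in 595 (4.19%). Among the called genes, this held for 333 of the 375 higher and 313 of the 333 lower ones. The calls were made on the same arrays, so this separation follows largely from the selection and is no separate support for it. Of the 375 higher genes, 130 had group means under 50 in all 4 other groups, and the median stem Leydig mean of the higher genes was 229. For the lower genes that median was 44.2, and 174 of the 333 had a stem Leydig mean under 50. Neither share was counted over all genes. Signals under 50 were common, since the array medians lay between 18.9 and 36.6, so these counts do not mark out the called genes. Counted by probe set, 709 of 31042 (2.28%) were called higher and 415 (1.34%) lower.

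**Figure D1:**
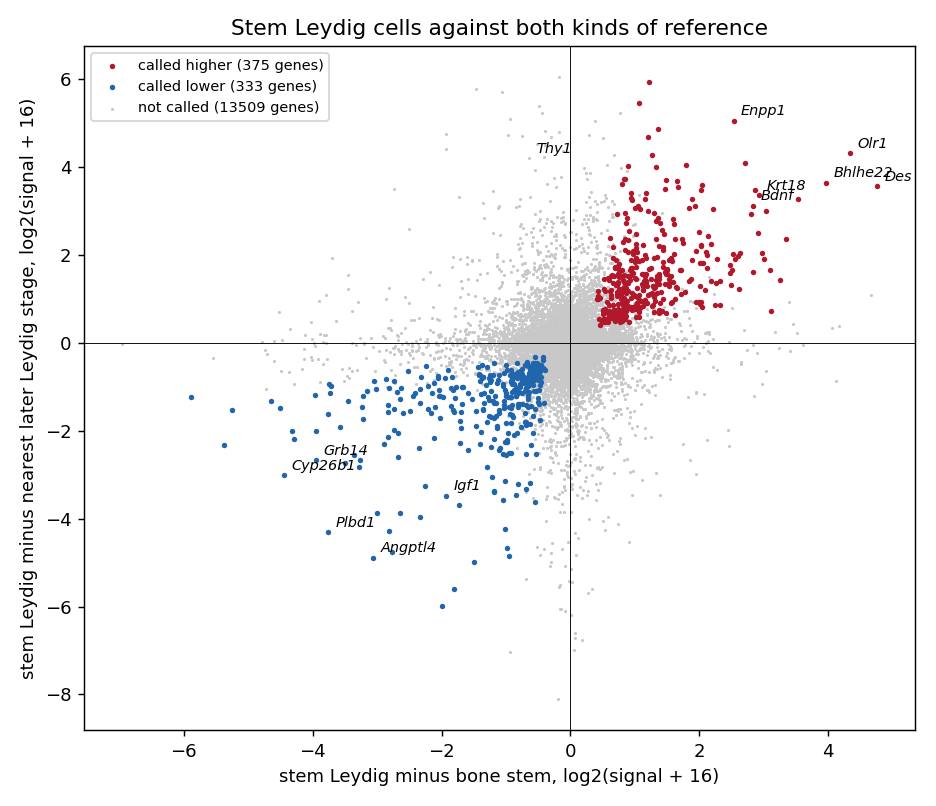
Each point is 1 of 14217 genes, placed by its log2(signal + 16) difference between stem Leydig and bone stem cells on the horizontal axis and between stem Leydig cells and the nearest of the 3 later Leydig stages on the vertical axis. The 375 genes called higher fill the upper right, led by Olr1, Bhlhe22 and Des, the 333 called lower fill the lower left, and Thy1 lies high on the vertical axis but left of 0 on the horizontal.

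The largest margin belonged to Olr1, a lectin-like scavenger receptor that takes up oxidized low-density lipoprotein. Its signal was 214.1, 406.6, 146.3, 488.4 and 576.7 on the stem Leydig arrays, 0.4, 0.7 and 0.8 on the progenitor arrays, 1.5, 0.4, 1.9 and 0.5 on the immature arrays, 3.6, 0.4, 0.1 and 0.8 on the adult arrays, and 0.4, 1.9 and 0.3 on the bone stem arrays. All 14 other arrays were thus at the bottom of the scale, and the lowest stem Leydig array was far above them (margin 4.32 ± 0.26, limma adjusted p = 9.98e-09). Bhlhe22, a basic helix-loop-helix transcription factor known from developing neurons, followed the same shape. It had 236.4, 384.3, 187.5, 469 and 292.5 on the stem Leydig arrays, while no other array exceeded 14.8 (margin 3.64 ± 0.22, adjusted p = 8.75e-09). For both genes the lack of overlap was a condition of their choice.

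Des encodes desmin, the intermediate filament of muscle cells. Its signal was 920.8, 1250.5, 987.1, 1099.4 and 1211.9 on the stem Leydig arrays, 47.3, 49.8 and 60.3 on the progenitor arrays, 25.7, 33.8, 39.9 and 37.1 on the immature arrays, 190.7, 40.1, 48.3 and 83.6 on the adult arrays, and 23.2, 28.4 and 22.9 on the bone stem arrays (margin 3.57 ± 0.25, adjusted p = 1.59e-08). Adult replicate 1 was the highest of the other arrays and still far under the lowest stem Leydig array, where lack of overlap was a condition of choice. Bone stem cells had the lowest Des mean of the 5 groups.

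**Figure D2:**
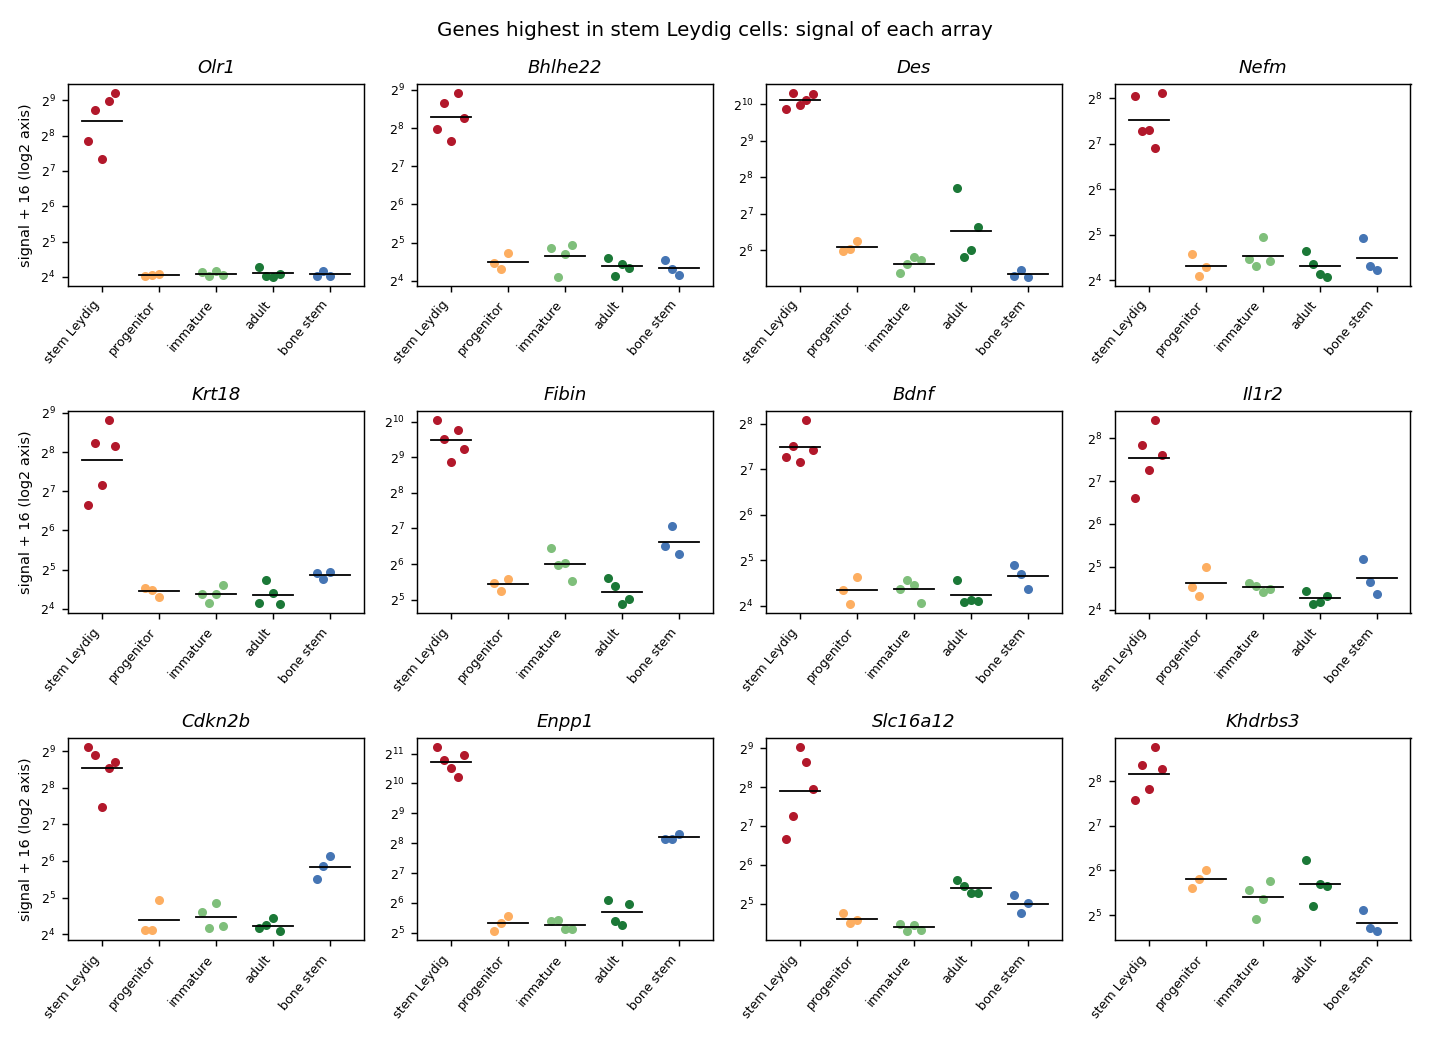
Signal plus 16 of each array on a log2 axis for 12 genes of the higher side, with a line at the mean of each group on that scale. They had the largest margins among genes whose 5 stem Leydig arrays all lie above the other 14, so that separation was fixed by the choice. Bone stem cells come nearest in Krt18, Fibin, Bdnf, Il1r2, Cdkn2b and Enpp1.

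To show the sequence in front of the genes that lead each direction, the promoters were taken from RefSeq (build GRCr8), each from 250 bases before to 50 bases after the annotated start, on the strand of the gene. They are reference sequences and were not measured here. Of the leading genes, Olr1 (chr4:164634498-164634797, minus strand) and Des (chr9:84299376-84299675, plus strand) were called higher, and Plbd1 (chr4:171260439-171260738, minus strand), Angptl4 (chr7:15258632-15258931, minus strand) and Cyp26b1 (chr4:118616127-118616426, minus strand) were called lower. Capitals mark matches to the 6 motifs named below.
Olr1: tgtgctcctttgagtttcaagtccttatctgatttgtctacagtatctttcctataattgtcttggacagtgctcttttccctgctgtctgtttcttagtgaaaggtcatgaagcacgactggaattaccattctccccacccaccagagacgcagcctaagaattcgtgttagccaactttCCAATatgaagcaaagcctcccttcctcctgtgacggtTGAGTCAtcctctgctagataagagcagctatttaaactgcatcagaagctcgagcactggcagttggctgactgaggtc
Des: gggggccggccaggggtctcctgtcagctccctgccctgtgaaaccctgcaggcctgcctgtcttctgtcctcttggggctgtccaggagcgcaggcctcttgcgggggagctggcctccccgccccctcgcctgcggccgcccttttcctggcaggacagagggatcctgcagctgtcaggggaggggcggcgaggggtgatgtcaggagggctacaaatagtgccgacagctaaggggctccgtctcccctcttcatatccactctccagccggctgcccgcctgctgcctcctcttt
Plbd1: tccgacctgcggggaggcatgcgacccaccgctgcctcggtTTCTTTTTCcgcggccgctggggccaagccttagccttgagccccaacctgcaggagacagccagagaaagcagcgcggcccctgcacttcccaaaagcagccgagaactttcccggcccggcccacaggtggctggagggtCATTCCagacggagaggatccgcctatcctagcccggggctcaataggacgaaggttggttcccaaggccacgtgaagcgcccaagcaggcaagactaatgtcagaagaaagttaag
Angptl4: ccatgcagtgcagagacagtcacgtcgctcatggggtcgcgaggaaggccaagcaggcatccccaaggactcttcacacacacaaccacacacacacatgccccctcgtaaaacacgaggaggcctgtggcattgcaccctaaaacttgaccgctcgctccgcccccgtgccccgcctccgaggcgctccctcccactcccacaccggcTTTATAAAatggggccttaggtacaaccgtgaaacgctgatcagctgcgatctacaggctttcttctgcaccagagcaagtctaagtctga
Cyp26b1: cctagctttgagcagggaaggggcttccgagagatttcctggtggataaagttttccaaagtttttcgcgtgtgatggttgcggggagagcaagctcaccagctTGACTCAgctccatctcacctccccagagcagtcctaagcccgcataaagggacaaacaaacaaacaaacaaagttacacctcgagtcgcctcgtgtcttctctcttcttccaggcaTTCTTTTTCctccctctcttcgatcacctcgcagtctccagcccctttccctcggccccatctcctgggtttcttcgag

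The motifs were searched on both strands, and positions are counted from the start, with negative numbers before it. Olr1 held CCAAT at -68 and a match to TGANTCA, the core bound by AP-1, at -30. Angptl4 held TATAAA, the TATA box core, at -39 and, overlapping it on the other strand, at -41. Plbd1 held GGAATG, the core bound by TEAD factors, on the reverse strand at -67 and GAAANNGAA, the core of interferon-response repeats, on the reverse strand at -209. Cyp26b1 held TGANTCA at -146 and GAAANNGAA on the reverse strand at -29, and in Des none of these letters was found in this window.

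A promoter was matched for 281 of the 375 higher genes, 265 of the 333 lower genes and 11700 of all 14217. GAAANNGAA was present in 6.41% of the promoters of higher genes, 14.7% of those of lower genes and 7.19% of all. CCAAT was present in 30.2%, 44.2% and 37.3% in the same order, and TATAAA in 9.25%, 7.17% and 8.45%. TGANTCA was present in 4.98%, 5.66% and 5.43%, and GGAATG in 14.2%, 11.7% and 11.7%. CAAGGTCA, the extended half-site bound by the product of Nr5a1, was present in 0.356%, 0.755% and 0.932%. The median GC content was 63.3% for higher genes, 60.3% for lower genes and 60% for all. The motifs were chosen with results of these data known, and the shares are descriptions without a test.

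Nefm and Krt18 had the next largest margins among the named genes of the higher side, and like Des they encode intermediate filament proteins. Nefm, the medium neurofilament subunit, had 247.8, 139.6, 141.4, 103.6 and 261.6 on the stem Leydig arrays and at most 15.1 on any other array (margin 2.99 ± 0.24, adjusted p = 1.99e-07). Krt18, a keratin of simple epithelia, had 84.8, 286.4, 127.6, 435 and 267.4 on the stem Leydig arrays and at most 14.8 elsewhere (margin 2.93 ± 0.33, adjusted p = 7.8e-06). Both were at the bottom of the scale outside stem Leydig cells. The lack of overlap between arrays was a condition of their choice.

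Krt7, another simple epithelial keratin, averaged 411 ± 187 (SD, n = 5) in stem Leydig cells, under 10 in the later Leydig stages and 139 in bone stem cells (margin 1.33 ± 0.29, adjusted p = 0.00817, 0.0521 without bone stem replicate 1, and 0.297 with a pseudocount of 1). Nes, which encodes nestin, a filament of neural and other progenitors, had 146.6, 272.1, 248.5, 259.8 and 283.9 on the stem Leydig arrays and at most 77.2 elsewhere (margin 1.97 ± 0.25, adjusted p = 4.15e-05). Of the 17 mesothelium and epithelium markers, 2 were called higher (Krt18 and Krt7) and 0 lower, against 2.64% and 2.34% of all genes. Of these markers, 11 had a stem Leydig mean under 16, against 10 in progenitor, 10 in immature, 11 in adult Leydig cells and 13 in bone stem cells. Their summed signal was 783.7 to 1648.8 on the stem Leydig arrays, 3363.3 to 4467.4 on progenitor, 3080.1 to 4715.3 on immature, 3766.9 to 5270.3 on adult and 478.6 to 539.3 on bone stem arrays. With most markers this dim, the sums rest on the brighter ones and do not stand for the whole list. The list median was -0.16, against -0.06 over all genes. The part of such cells in the results was not tested.

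Of the 16 neuron and glia markers, Nefm and Nes were called higher and S100b, a calcium-binding protein of glia that Leydig cells also make, was lower. The shares over all genes were 2.64% and 2.34%. S100b averaged 283 ± 84.6 (SD, n = 5) in stem Leydig cells, 933 in progenitor, 1316 in immature and 2446 in adult Leydig cells and 640 in bone stem cells (margin -1.19 ± 0.17, adjusted p = 0.000205). The summed signal of these markers was 1604.9 to 2193.7 on the stem Leydig arrays, 1533.3 to 1654.6 on progenitor, 2093.6 to 2314.6 on immature, 2993.5 to 3355.2 on adult and 1306.1 to 1360.9 on bone stem arrays. S100b made up most of this sum in the later Leydig stages and a small part of it in stem Leydig cells. The order of the sums therefore cannot be read as that of the other markers, which were not summed apart. Of the 16, 7 had their highest mean in stem Leydig cells, against 17.4% of all genes, and the list median was 0.25. The mean was under 16 for 5 of them in stem Leydig cells, 8 in progenitor, 9 in immature, 12 in adult Leydig and 10 in bone stem cells, and the part of neural cells in the results was not tested.

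Contractile genes other than Des were not called. Of 22 measured smooth muscle and contractile genes, 1 (Des) was called higher and 0 lower, against 2.64% and 2.34% of all genes. The list median was 1.39 against -0.06 over all genes. Acta2, the actin of smooth muscle, had 2324.7, 1237.3, 1435.6, 985.4 and 1805 on the stem Leydig arrays, 47.1 to 232.4 on the later Leydig arrays, and 1139.9, 2023.1 and 1941.5 on the bone stem arrays. The stem Leydig and bone stem arrays overlapped, and both were far above every later Leydig array.

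Among 14 markers of peritubular myoid cells, the contractile cells around the seminiferous tubules, Des and Kcnmb1 were called higher and 0 lower. The shares over all genes were 2.64% and 2.34%. Of the 14 markers, 1 had a stem Leydig mean under 16, and the list median was 1.92. Kcnmb1, a potassium channel subunit of smooth muscle, averaged 199 ± 63.8 (SD, n = 5) in stem Leydig cells, under 10 in each later stage and 81.4 in bone stem cells (margin 1.08 ± 0.23, adjusted p = 0.00704, and 0.539 with a pseudocount of 1). The summed myoid signal was 8985.7 to 18578.3 on the stem Leydig arrays, 1543.3 to 1677 on progenitor, 1102.9 to 1643.7 on immature, 929.9 to 2962.9 on adult and 13733.2 to 18589.2 on bone stem arrays. Stem Leydig and bone stem arrays overlapped in this sum and the later stages lay below both. In such bulk samples, fewer cells of a type and less RNA per cell cannot be told apart, and the part of myoid cells in the results was not tested.

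**Figure D3:**
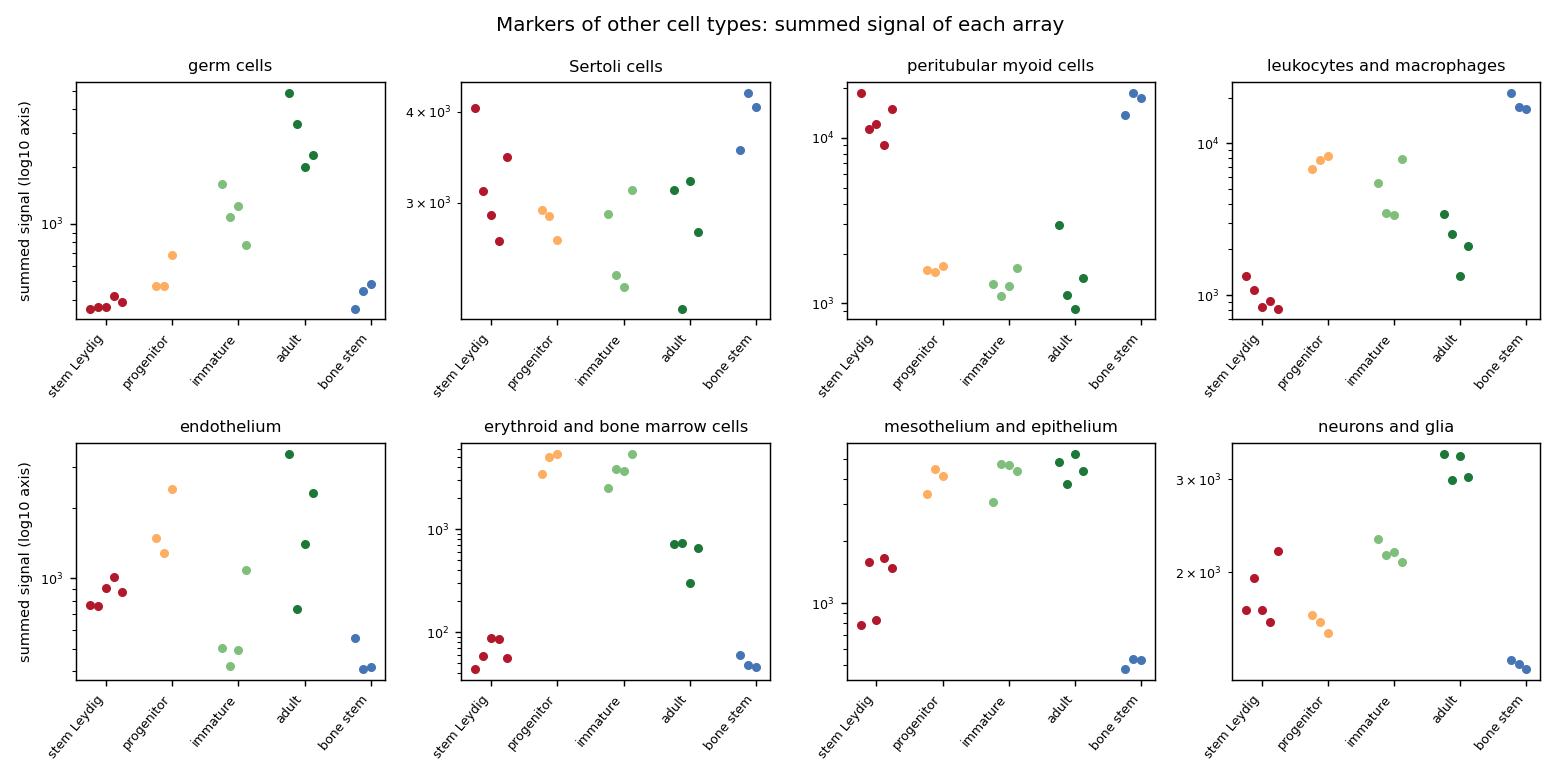
Summed signal of the markers of 8 other cell types on each array, on log10 axes, by group. The stem Leydig arrays are the lowest for leukocyte markers, narrowly so against the adult arrays. They share the high level of bone stem arrays for peritubular myoid markers and the low level of bone stem arrays for erythroid markers.

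Hmga1, an architectural chromatin protein abundant in embryonic and dividing cells, had 1010.6, 1334.5, 1126.9, 1153.5 and 1127.4 on the stem Leydig arrays, 33.7 to 112.8 on the later Leydig arrays, and 305.7, 254.6 and 239.6 on the bone stem arrays (margin 2.05 ± 0.16, adjusted p = 6.53e-08). Bone stem cells stood clearly above the later stages and clearly below stem Leydig cells, where lack of overlap was a condition of choice. Khdrbs3, an RNA-binding protein that guides splicing, averaged 284 ± 95.0 (SD, n = 5) in stem Leydig cells and 12.6 to 40.5 in the other groups (margin 2.36 ± 0.25).

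Of 15 measured gonad and testis mesenchyme transcription factors, 3 were called higher, against 2.64% of all genes, and 0 lower. Hes1, the main effector of Notch signalling, had 671.9, 406.9, 1250.7, 688.4 and 728 on the stem Leydig arrays and 69.3 to 287.3 on the others (margin 1.58 ± 0.31, adjusted p = 0.00381). Nr2f1, an orphan nuclear receptor related to Nr2f2, averaged 34.7 ± 9.19 in stem Leydig cells and 1.39 to 8.73 in the other groups, with 1 bone stem array at 22.7 inside the stem Leydig range (margin 1.12 ± 0.22, adjusted p = 0.00369, 0.0551 without bone stem replicate 2, and 0.0696 with each pair of groups fitted on its own). Sox4, a factor of progenitor cells, averaged 571 ± 158 in stem Leydig cells and 300 to 363 in the other groups, and its arrays overlapped. Its call (margin 0.59 ± 0.16, adjusted p = 0.0466) was lost under 25 of 34 alternatives. Removal of any single array other than stem Leydig replicate 3, progenitor replicate 1 or adult replicate 3 ended it, with adjusted p from 0.0506 to 0.264.

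Zfpm2, a cofactor of Gata4, was the only called gene of 15 Leydig hormone receptors and regulators, where 2.64% of all genes were called higher. It had 64.7, 62.5, 52.8, 51.5 and 59.5 on the stem Leydig arrays and at most 37.4 elsewhere (margin 0.91 ± 0.19, adjusted p = 0.00637, 0.064 without progenitor replicate 2, and 0.393 with the mean of its probe sets). It was thus the exception in its list, while the list median was -0.85.

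Of 27 positional genes, which are Hox genes, their cofactors, T-box genes and Pitx1 and record where along the body axis a cell arose, 5 were called higher and 0 lower, against 2.64% and 2.34% of all genes. The 5 were 3 Hox genes and 2 Meis cofactors, and 14 of the 27 had their highest mean in stem Leydig cells, against 17.4% of all genes. Hoxd10 had 302.6, 204.6, 247, 208 and 211 on the stem Leydig arrays, 56.8 to 69 on progenitor, 55.5 to 74.3 on immature, 31.5 to 35 on adult and 7.5 to 19.5 on bone stem arrays (margin 1.67 ± 0.14, adjusted p = 4.62e-07). The Hox cofactor Meis1 had 699.4, 609.2, 662.2, 711.3 and 722.9 on the stem Leydig arrays and at most 299.2 on any other (margin 1.17 ± 0.13, adjusted p = 4.89e-06). Both had 5 stem Leydig arrays close together and clear of the rest.

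The other 3 positional genes had smaller margins. Hoxb2 averaged 54.0 in stem Leydig cells and 7.91 to 21.0 in the other groups (margin 0.93 ± 0.17, adjusted p = 0.0022, and 0.0547 with a pseudocount of 1). Meis2 averaged 121 in stem Leydig cells, 22.7 to 33.8 in the later stages and 60.5 in bone stem cells (margin 0.81 ± 0.19, adjusted p = 0.0137). Hoxc8 was dim, at 33.0 in stem Leydig cells and 7.70 to 12.1 elsewhere (margin 0.78 ± 0.18, adjusted p = 0.0146). Without bone stem replicate 2 or 3, the adjusted p was 0.0934 or 0.0512 for Meis2 and 0.069 or 0.102 for Hoxc8, which also had 0.295 with a pseudocount of 1.

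Of 37 measured growth factors and receptors, 6 were called higher and 2 lower, against 2.64% and 2.34% of all genes, and 29 were not called. The list median was -0.01, against -0.06 over all genes. Bdnf, the brain-derived neurotrophic factor, had 139.4, 167, 126.7, 255 and 155.3 on the stem Leydig arrays, 4.5, 0.5 and 8.8 on progenitor, 4.8, 7.7, 5.9 and 0.8 on immature, 7.7, 1, 1.6 and 1.3 on adult, and 13.7, 10.1 and 4.6 on bone stem arrays (margin 2.84 ± 0.21, adjusted p = 2.67e-08). It was at the bottom of the scale in all 4 other groups. Vegfc, which drives the growth of lymphatic vessels, had 888.5, 621.1, 521.5, 748.1 and 709 on the stem Leydig arrays, at most 46.2 on the later Leydig arrays and 177.7 to 194.1 on the bone stem arrays (margin 1.80 ± 0.26, adjusted p = 0.000149, and 0.0844 with a pseudocount of 1).

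Nrg1, a ligand of ErbB receptors, averaged 104 ± 49.4 (SD, n = 5) in stem Leydig cells, 5.03 to 15.6 in the later stages and 26.9 in bone stem cells (margin 1.43 ± 0.26). Fgf1, which binds all fibroblast growth factor receptors, averaged 152 ± 33.0 in stem Leydig cells, 8.74 to 16.9 in the later stages and 51.2 in bone stem cells (margin 1.33 ± 0.20). Hgf, the ligand of the Met receptor, was dim, averaging 25.9 in stem Leydig cells, under 3 in the later stages and 10.7 in bone stem cells (margin 0.63 ± 0.13, adjusted p = 0.00465, and 0.161 with a pseudocount of 1). Fgf2, a mitogen of mesenchymal cells, averaged 64.7 in stem Leydig cells, 9.09 to 11.3 in the later stages and 34.4 in bone stem cells. Its call (margin 0.65 ± 0.18, adjusted p = 0.0473) was lost under 24 of 34 alternatives. Removal of any single array other than stem Leydig replicate 1, immature replicate 3 or adult replicate 3 ended it, with adjusted p from 0.0521 to 0.233.

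The lower genes of the list were a ligand and a receptor. Igf1, the insulin-like growth factor, had 253, 124.2, 98.8, 122.9 and 145.8 on the stem Leydig arrays, 1480 to 2060.5 on progenitor, 1530.8 to 3003.7 on immature, 2461.4 to 3140.6 on adult and 563.8 to 606.4 on bone stem arrays (margin -1.93 ± 0.22, adjusted p = 1.4e-05). All 14 other arrays were above every stem Leydig array. Fgfr2, a fibroblast growth factor receptor, averaged 93.3 ± 12.4 in stem Leydig cells and 263 to 378 in the other groups (margin -1.35 ± 0.13), although with the mean of its 5 probe sets its adjusted p was 0.808.

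**Figure D4:**
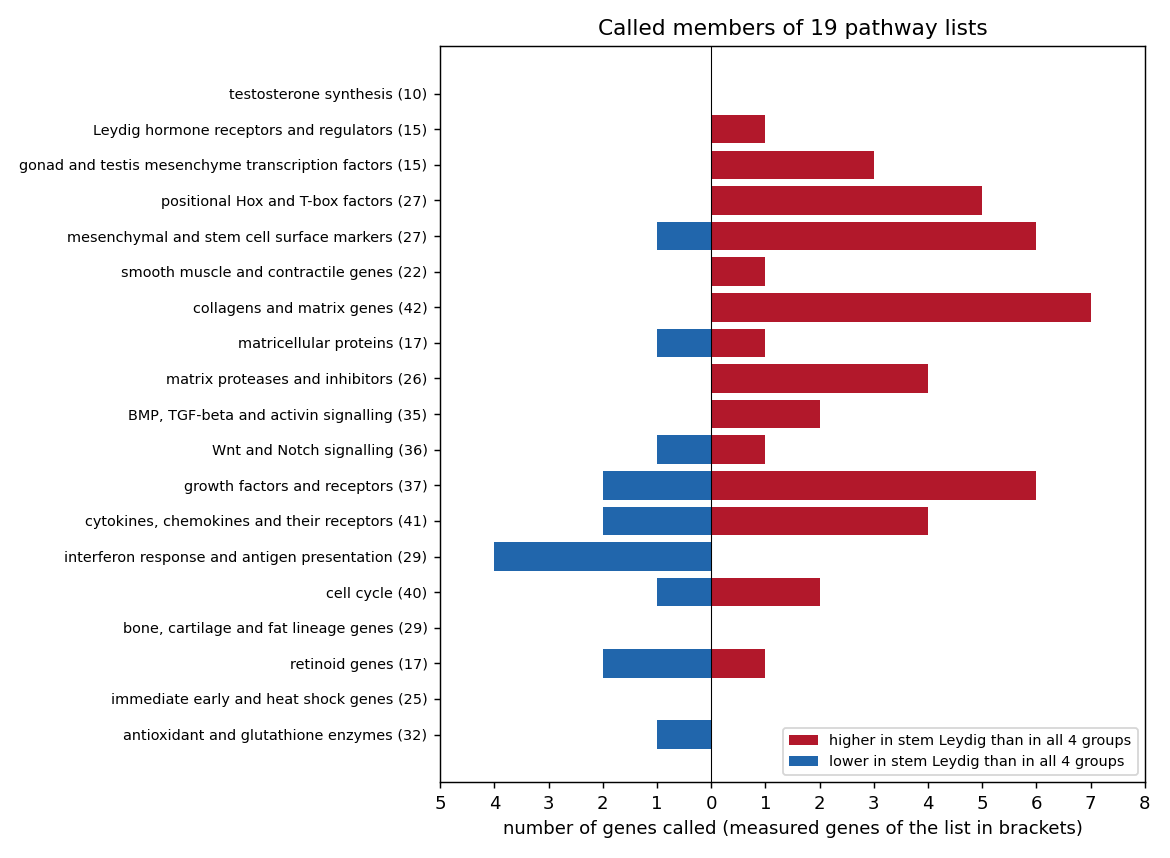
Number of genes called in each of 19 pathway lists, with those higher in stem Leydig cells to the right and those lower to the left, and the measured size of each list in brackets. Collagens and matrix genes have 7 higher and 0 lower, growth factors and receptors 6 higher and 2 lower, and interferon response and antigen presentation 0 higher and 4 lower. Over all genes, 2.64% were called higher and 2.34% lower.

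In the transforming growth factor family, 2 of 35 measured genes were called higher and 0 lower, against 2.64% and 2.34% of all genes. Both belong to the activin branch. Inhba, the subunit of activin A, had 1440.9, 1464.6, 1251.9, 1335.3 and 1609.7 on the stem Leydig arrays, 7.4 to 117.2 on the later Leydig arrays, and 755.9, 486.2 and 521 on the bone stem arrays (margin 1.27 ± 0.33, adjusted p = 0.0312). Fstl3, an extracellular inhibitor of activin, averaged 575 ± 95.1 (SD, n = 5) in stem Leydig cells, 3.92 to 28.4 in the later stages and 316 in bone stem cells (margin 0.83 ± 0.16, adjusted p = 0.00296, and 0.247 with a pseudocount of 1). The Inhba call was lost under 10 of 34 alternatives, including removal of stem Leydig replicate 1, 2, 4 or 5 (adjusted p from 0.0544 to 0.0737), of bone stem replicate 2 (0.178) and of bone stem replicate 3 (0.149). No stem Leydig array overlapped a bone stem array in either gene.

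Of 36 measured Wnt and Notch genes, Lef1 was called higher and Notch1 lower, which is near the shares of 2.64% and 2.34% over all genes. Lef1, a nuclear effector of Wnt signalling, averaged 138 ± 21.8 (SD, n = 5) in stem Leydig cells and 39.8 to 66.6 in the other groups (margin 0.95 ± 0.21, adjusted p = 0.0105, and 0.0961 or 0.0792 without progenitor replicate 1 or 2). Notch1, a receptor upstream of Hes1, had 21.3, 12.3, 37.3, 15.9 and 17.6 on the stem Leydig arrays and 43.2 to 96.9 on the others (margin -0.86 ± 0.19, adjusted p = 0.00991, and 0.0875 without bone stem replicate 1). Hes1 was thus higher and Notch1 lower on the same arrays.

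The decoy receptor of interleukin-1 and 2 signalling receptors of its family were called higher. Il1r2, the decoy receptor that binds interleukin-1 without signalling, had 81.1, 214, 135.9, 327.3 and 178.1 on the stem Leydig arrays and at most 20.5 elsewhere (margin 2.80 ± 0.28, adjusted p = 2.47e-06). Il1rl1, the receptor of interleukin-33, had 2046.3, 964.8, 1239.5, 1182.8 and 1580.2 on the stem Leydig arrays, at most 9.2 on the later Leydig arrays and 548.7 to 593.3 on the bone stem arrays (margin 1.22 ± 0.19, adjusted p = 0.00039, and 0.182 with a pseudocount of 1). Il1r1, the signalling receptor of interleukin-1, averaged 609 ± 86.1 (SD, n = 5) in stem Leydig cells, 63.8 to 128 in the later stages and 330 in bone stem cells (margin 0.84 ± 0.16).

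In the list of 41 cytokines, chemokines and receptors, 4 were called higher (Il1rl1, Il1r1, Il15 and Il11) and 2 lower (Ccl3 and Il18). The shares over all genes were 2.64% and 2.34%. Il15, a cytokine that sustains lymphocytes, averaged 180 ± 39.9 in stem Leydig cells and 35.7 to 85.0 in the other groups (margin 0.93 ± 0.18). Il11 was at the bottom of the scale, with 12.5, 22.5, 11.1, 29 and 2.7 on the stem Leydig arrays and 0.9 to 6.2 on the others. Stem Leydig replicate 5 lay inside the range of the others, and the call (margin 0.66 ± 0.17, adjusted p = 0.0316) was lost under 16 of 33 alternatives. Removal of stem Leydig replicate 2 or 4, immature replicate 1, 2 or 3, or any progenitor or bone stem array ended it, with adjusted p from 0.0637 to 0.141.

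Of 42 measured collagens and matrix genes, 7 were called higher, against 2.64% of all genes, and 0 lower, 21 had their highest mean in stem Leydig cells, against 17.4% of all genes, and the list median was 1.32. Fbln5, which assembles elastic fibres, had 574.2, 216.3, 347.1, 217.1 and 383 on the stem Leydig arrays and at most 118.6 elsewhere (margin 1.60 ± 0.23, adjusted p = 0.000134). The basement membrane collagen Col4a1 had 3333.8, 2554.2, 1770.2, 1916.6 and 2615.4 on the stem Leydig arrays, 846 to 1047 on progenitor, 590.8 to 821.9 on immature, 144 to 480 on adult and 463.5 to 872.8 on bone stem arrays (margin 1.28 ± 0.30, adjusted p = 0.0148). Col4a2, its partner chain and head-to-head neighbour, averaged 1604 ± 317 in stem Leydig cells and 228 to 682 in the other groups (margin 1.19 ± 0.27, adjusted p = 0.0115). Both chains of this collagen were clear of all other arrays, but without progenitor replicate 3 the adjusted p was 0.0784 for Col4a1 and 0.0593 for Col4a2.

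The other 4 collagens had bone stem cells as the nearest group. Col12a1, a fibril-associated chain, averaged 845 ± 87.6 (SD, n = 5) in stem Leydig cells, 9.66 to 17.4 in the later stages and 367 in bone stem cells (margin 1.20 ± 0.16). Col8a1, a short-chain collagen of vessel walls, averaged 1012 ± 470 in stem Leydig cells, 2.18 to 5.97 in the later stages and 441 in bone stem cells (margin 1.07 ± 0.23). Col5a3, a fibril-regulating chain, averaged 367 ± 35.3 in stem Leydig cells, 6.56 to 8.08 in the later stages and 190 in bone stem cells (margin 0.89 ± 0.19), and Col16a1 averaged 515 ± 74.7 in stem Leydig cells, 92.6 to 214 in the later stages and 293 in bone stem cells (margin 0.77 ± 0.15). The later stages lay well below bone stem cells in the first 3 of these genes. With a pseudocount of 1 the adjusted p was 0.257 for Col8a1 and 0.803 for Col5a3.

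Among 26 matrix proteases and inhibitors, 4 were called higher, against 2.64% of all genes, and 0 lower. Mmp16, a membrane-bound metalloproteinase, averaged 287 ± 101 in stem Leydig cells, 6.57 to 8.86 in the later stages and 75.6 in bone stem cells (margin 1.67 ± 0.22, adjusted p = 5.01e-05). Adamts7, a secreted metalloproteinase of vessel walls, averaged 162 ± 31.0 in stem Leydig cells and 35.2 to 79.6 in the other groups (margin 0.88 ± 0.14). The stem Leydig arrays disagreed most for Mmp10, stromelysin-2, which had 1.3, 94.3, 124.8, 311.2 and 34.6 there and 0.5 to 6.8 elsewhere. Its margin of 2.18 ± 0.54 (adjusted p = 0.022) rested on 4 of the 5 arrays, and the call was lost under 11 of 33 alternatives, among them removal of stem Leydig replicate 2 or 3, progenitor replicate 1 or 2, or any bone stem array, with adjusted p from 0.0502 to 0.103.

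Plat, the tissue plasminogen activator, averaged 497 ± 85.3 (SD, n = 5) in stem Leydig cells and 62.6 to 213 in the other groups, with no overlap. Its call (margin 1.15 ± 0.30, adjusted p = 0.0358) was lost under 15 of 34 alternatives. Removal of stem Leydig replicate 1, 2, 3 or 5 or of any progenitor or bone stem array ended it, with adjusted p from 0.0554 to 0.13. Of 17 matricellular proteins, Ccn4, a Wnt target, was called higher and Smoc1 lower, against 2.64% and 2.34% of all genes. Ccn4 had 521.9, 153.1, 483.6, 200.4 and 169.9 on the stem Leydig arrays, at most 16.9 on the later Leydig arrays and 87.8 to 132.5 on the bone stem arrays. Its call (margin 1.15 ± 0.30, adjusted p = 0.0337) was lost under 10 of 34 alternatives, including removal of stem Leydig replicate 1 or 3 or any bone stem array (adjusted p from 0.0694 to 0.195).

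Of 27 mesenchymal and stem cell surface markers, 6 were called higher and 1 lower, against 2.64% and 2.34% of all genes. Itga1, the collagen-binding integrin subunit, had 703.4, 140.7, 510, 294.1 and 223.5 on the stem Leydig arrays and at most 96.7 elsewhere (margin 2.02 ± 0.41, adjusted p = 0.00471). Mcam, an adhesion molecule of pericytes and endothelium, had 1430.7, 1173.2, 1100.3, 1108 and 1520.7 on the stem Leydig arrays and at most 350.9 elsewhere (margin 1.84 ± 0.41, adjusted p = 0.0105, and 0.0555 without bone stem replicate 2). The pericyte proteoglycan Cspg4 averaged 303 ± 53.7 (SD, n = 5) in stem Leydig cells, 5.16 to 22.2 in the later stages and 141 in bone stem cells (margin 1.04 ± 0.24, adjusted p = 0.0134, 0.134 without bone stem replicate 1, and 0.328 with a pseudocount of 1). Nestin, described above, was the other clear member of the list.

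The remaining 2 higher surface markers were close to the threshold. Eng, an accessory receptor of transforming growth factor beta, averaged 368 ± 30.8 (SD, n = 5) in stem Leydig cells and 76.9 to 180 in the other groups, with no overlap. Its adjusted p was 0.0363 (margin 1.01 ± 0.27), and removal of stem Leydig replicate 1, 2, 4 or 5, progenitor replicate 1 or 2, or bone stem replicate 2 or 3 ended the call, with adjusted p from 0.0539 to 0.229. Itgav, the vitronectin receptor subunit, averaged 651 ± 126 in stem Leydig cells, 133 to 185 in the later stages and 394 in bone stem cells, with 1 bone stem array inside the stem Leydig range. Its adjusted p was 0.0484 (margin 0.73 ± 0.20), and removal of any single array other than stem Leydig replicate 3, progenitor replicate 3, immature replicate 1 or 2, or bone stem replicate 1 ended the call, with adjusted p from 0.0553 to 0.367. The lower member, the ecto-nucleotidase Nt5e, known as the mesenchymal stromal marker CD73, averaged 87.4 ± 19.5 in stem Leydig cells, 344 to 965 in the later stages and 238 in bone stem cells (margin -1.29 ± 0.17, adjusted p = 5.25e-05).

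Among 13 endothelial markers, Flt1 and Eng were called higher and 0 lower, against 2.64% and 2.34% of all genes, and 8 had a stem Leydig mean under 16. Flt1, a receptor of vascular endothelial growth factor, had 54.6, 60.9, 95, 71.6 and 79.2 on the stem Leydig arrays and at most 26.5 elsewhere (margin 1.70 ± 0.21, adjusted p = 6.95e-05). Its companion receptor Kdr averaged 11.7 and the platelet-endothelial adhesion molecule Pecam1 6.2 in stem Leydig cells. The summed endothelial signal was 762.7 to 1013.6 on the stem Leydig arrays, 1285.8 to 2408.3 on progenitor, 421.7 to 1085.6 on immature, 738.6 to 3410.4 on adult and 407.4 to 555.2 on bone stem arrays. The list median was -1.14.

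Of 40 cell cycle genes, 2 were called higher and 1 lower, against 2.64% and 2.34% of all genes. Cdkn2b, the p15 inhibitor of cyclin D kinases, had 536.3, 459.1, 160.5, 357 and 400.7 on the stem Leydig arrays, at most 14.4 on the later Leydig arrays, and 29.7, 41.7 and 54 on the bone stem arrays (margin 2.71 ± 0.29, adjusted p = 4.62e-06). Cdkn2c, the related p18 inhibitor, went the other way, averaging 67.2 in stem Leydig cells and 136 to 235 in the other groups (margin -0.85 ± 0.19, adjusted p = 0.00958, 0.113 without bone stem replicate 1, and 0.431 with the mean of its probe sets). Ccnd2, cyclin D2, averaged 363 ± 165 in stem Leydig cells, 32.7 to 118 in the later stages and 142 in bone stem cells (margin 1.16 ± 0.29, adjusted p = 0.0218). Without stem Leydig replicate 1 or 3, or bone stem replicate 1 or 3, its adjusted p was 0.0512 to 0.121.

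Enzymes, transporters and other single genes completed the largest margins. Enpp1, a cell-surface enzyme that makes pyrophosphate, had 2360.4, 1761.3, 1451.1, 1159.4 and 1942.1 on the stem Leydig arrays, 17.4 to 52.2 on the later Leydig arrays, and 268.5, 266.5 and 300.2 on the bone stem arrays (margin 2.53 ± 0.21, adjusted p = 1.47e-07). Fibin, a secreted protein known from fin bud development in zebrafish, had 1039.4, 719.5, 449.8, 849.6 and 587.2 on the stem Leydig arrays and at most 118.4 elsewhere (margin 2.86 ± 0.25, adjusted p = 2.85e-07). Both had bone stem cells as the nearest group.

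Slc16a12, a membrane transporter of the monocarboxylate family, averaged 268 ± 174 (SD, n = 5) in stem Leydig cells and 5.01 to 26.6 in the other groups (margin 2.50 ± 0.32), with single stem Leydig arrays from 84.6 to 505.8. Arhgap6 averaged 224 ± 59.4 in stem Leydig cells, 9.30 to 12.3 in the later stages and 34.9 in bone stem cells (margin 2.21 ± 0.21). Vsnl1, a neuronal calcium sensor, averaged 140 ± 72.2 in stem Leydig cells and 8.46 to 16.9 in the other groups (margin 2.14 ± 0.27). For Galnt16, an enzyme that starts O-linked glycosylation, the mean was 132 ± 32.6 in stem Leydig cells, and the other arrays had at most 30.3 (margin 2.06 ± 0.22). In all 4 genes no other array reached the lowest stem Leydig array, which was a condition of their choice.

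Of 17 retinoid genes, 1 was called higher and 2 lower, 14 were not called, and the shares over all genes were 2.64% and 2.34%. Cyp26b1, the enzyme that degrades retinoic acid in the testis, had 5.8, 14.1, 19.8, 24.9 and 7.3 on the stem Leydig arrays, 1336.1, 1580.8 and 2421.3 on progenitor, 1478.6, 1908, 1798 and 2124.6 on immature, 291.1, 304.1, 153.9 and 176.2 on adult, and 440.6, 750.5 and 748.5 on bone stem arrays (margin -3.01 ± 0.23, adjusted p = 6.53e-08). Aldh1a2, which makes retinoic acid, had 291, 373, 49.2, 274.5 and 212.9 on the stem Leydig arrays and 8.7 to 65.5 on the others (margin 1.91 ± 0.38, adjusted p = 0.00354). The degrading enzyme was low on all 5 stem Leydig arrays, and lack of overlap was a condition of its choice. The synthetic enzyme was high on 4 and inside the range of the others on replicate 3. With each pair of groups fitted on its own, the adjusted p of Aldh1a2 was 0.0689. Rbp4, the plasma carrier of retinol, had 0.8 to 3.1 on the stem Leydig arrays, 28.9 to 197.7 on the later Leydig arrays and 129.9 to 624.1 on the bone stem arrays (margin -1.62 ± 0.31, adjusted p = 0.00262, and 0.264 with a pseudocount of 64).

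On the lower side, the largest margin belonged to Plbd1, a lysosomal protein of the phospholipase B family. It had 11.3, 15.4, 14, 13.1 and 10.4 on the stem Leydig arrays, 1269.2, 1398.4 and 1410.7 on progenitor, 1249.2, 1588.5, 1553 and 1228.1 on immature, 485.2, 508.6, 649.5 and 579.8 on adult, and 333.7, 385 and 401.8 on bone stem arrays (margin -3.75 ± 0.12, adjusted p = 9.12e-14). By this probe set the gene was thus near the bottom of the scale in stem Leydig cells and bright in every other group, with replicates close together. Its other probe set was not called. Grb14, an adaptor that restrains the insulin receptor, had 17.8, 12.9, 16.9, 11 and 12.4 on the stem Leydig arrays and 146 to 684.9 on the others (margin -2.67 ± 0.11, adjusted p = 6.43e-12).

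Angptl4, a secreted inhibitor of lipoprotein lipase, had 19.9, 23.4, 21.4, 27.1 and 22.1 on the stem Leydig arrays, 747.6 to 2639.3 on the later Leydig arrays, and 455.8, 264.2 and 239.6 on the bone stem arrays (margin -3.06 ± 0.25, adjusted p = 1.41e-07). Mt2A, a metallothionein that binds zinc and copper, had 92.9, 81.4, 241.4, 104.8 and 90.4 on the stem Leydig arrays, 1401.6 to 2577.3 on the later Leydig arrays, and 1998.2, 690.5 and 760.4 on the bone stem arrays (margin -3.01 ± 0.31, adjusted p = 2.47e-06). In both, bone stem cells were the nearest group and still many times brighter than stem Leydig cells. Lack of overlap and means of at least 100 in every other group were conditions of their choice.

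Xdh, the xanthine dehydrogenase that forms uric acid, averaged 50.1 ± 22.9 (SD, n = 5) in stem Leydig cells and 441 to 1080 in the other groups (margin -2.83 ± 0.20). Slc1a3, a glutamate transporter, averaged 14.1 ± 3.07 in stem Leydig cells, 424 in progenitor, 863 in immature and 1902 in adult Leydig cells and 176 in bone stem cells (margin -2.65 ± 0.18). Creg1, a lysosomal glycoprotein, averaged 46.2 ± 18.8 in stem Leydig cells, 401 in progenitor, 785 in immature and 2873 in adult Leydig cells and 663 in bone stem cells (margin -2.74 ± 0.22). In Slc1a3 and Creg1 the means followed the order of the Leydig stages, with the smallest in stem Leydig and the largest in adult cells.

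Hopx, a homeodomain protein that does not bind DNA, averaged 29.7 ± 8.33 (SD, n = 5) in stem Leydig cells, 885 to 1194 in the later stages and 318 in bone stem cells (margin -2.81 ± 0.24). Tmem176b, a membrane protein, averaged 81.6 ± 30.7 in stem Leydig cells, 2570 to 4422 in the later stages and 656 in bone stem cells (margin -2.77 ± 0.24). Smoc1, a calcium-binding matrix protein that modulates bone morphogenetic proteins, had 28.4, 12, 30.2, 12.2 and 13.1 on the stem Leydig arrays and 175.1 to 475.9 on the others (margin -2.66 ± 0.22, adjusted p = 2.03e-07). These 3 genes were chosen for lack of overlap, and no array of another group came near the stem Leydig arrays.

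Of 32 antioxidant and glutathione enzymes, 1 was called lower and 0 higher, against 2.34% and 2.64% of all genes. Mgst1, a membrane-bound glutathione transferase, had 493.9, 465.8, 752.4, 319.7 and 397.8 on the stem Leydig arrays, 2028 to 5715.8 on the later Leydig arrays, and 1949.9, 747 and 708.6 on the bone stem arrays. Stem Leydig replicate 3 lay above bone stem replicates 2 and 3, and the call (margin -1.09 ± 0.29, adjusted p = 0.0366) was lost under 9 of 34 alternatives, including removal of bone stem replicate 1 (adjusted p = 0.404), stem Leydig replicate 1, 2, 4 or 5 or progenitor replicate 2 (adjusted p from 0.0511 to 0.0997).

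**Figure D5:**
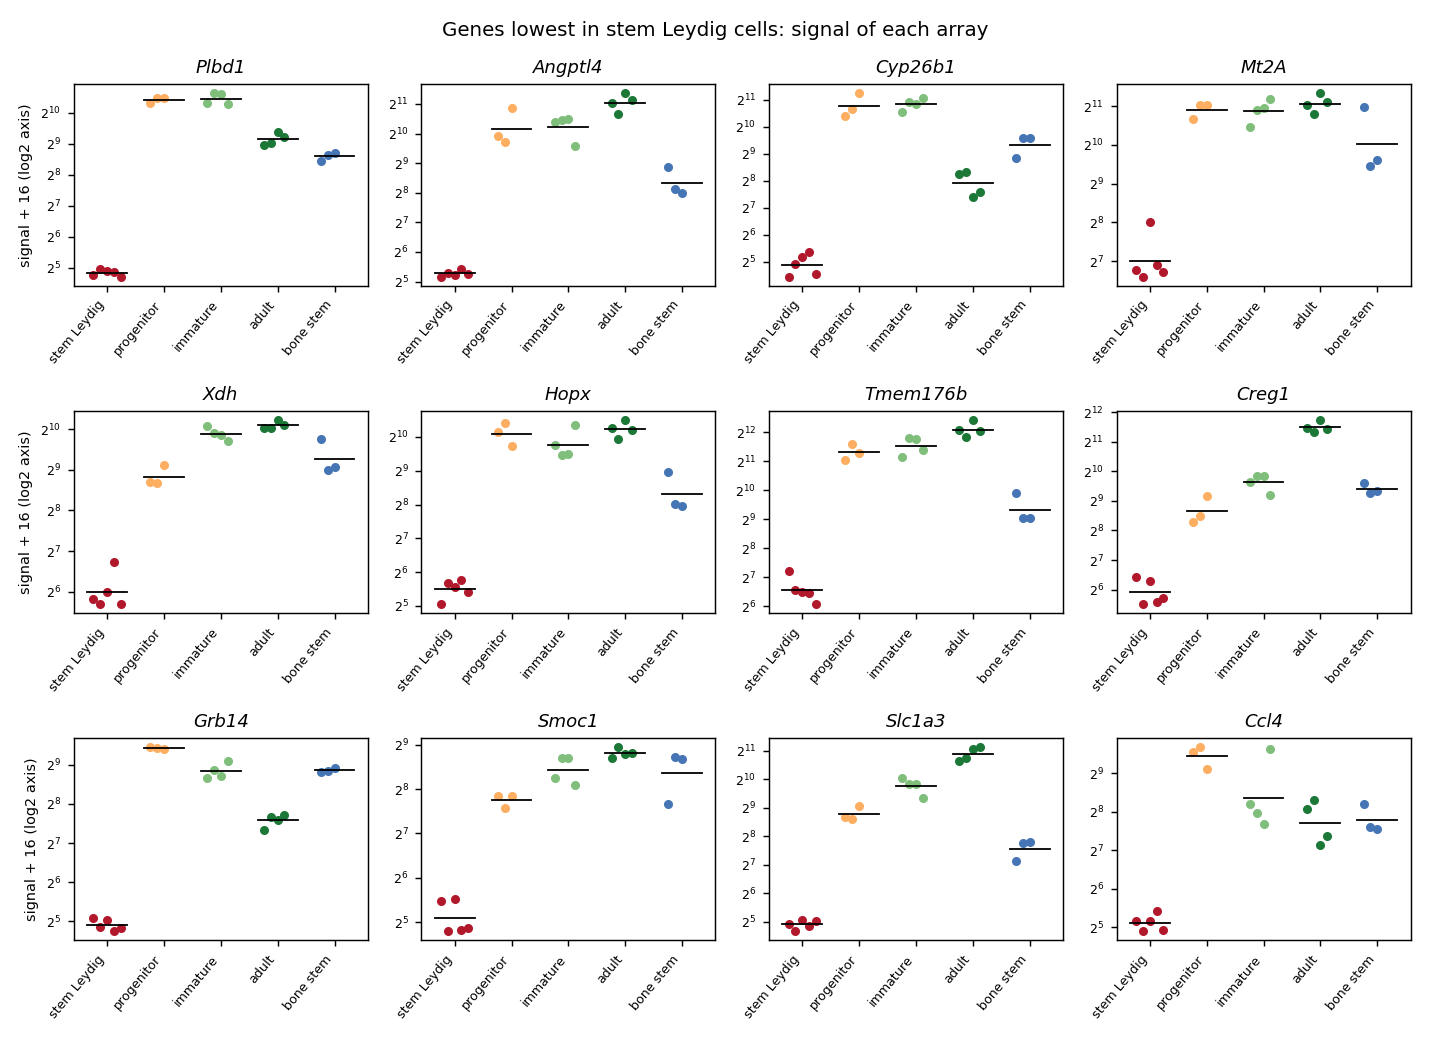
Signal plus 16 of each array on a log2 axis for the 12 genes with the largest margins among those lower in stem Leydig cells and bright elsewhere, with a line at the mean of each group on that scale. Only genes whose 5 stem Leydig arrays lie below all 14 others were eligible, so that separation was fixed by the choice. In Plbd1 and Grb14 the stem Leydig arrays lie close together near the bottom of the scale.

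Markers of leukocytes were low in stem Leydig cells. Of 25 measured, 7 were called lower, against 2.34% of all genes, and 0 higher, 18 had their lowest mean there, against 23.4% of all genes, and 15 had a stem Leydig mean under 16. The list median was -1.76. The summed signal of the list was 815.9 to 1333.6 on the stem Leydig arrays, 6784.5 to 8292.8 on progenitor, 3396.4 to 7908.9 on immature, 1347.1 to 3413.7 on adult and 16709.3 to 21385.9 on bone stem arrays. Stem Leydig arrays were the lowest, but only narrowly below the adult arrays (at most 1333.6 against at least 1347.1). Bone stem arrays, in spite of their label, were the highest.

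Laptm5, a lysosomal protein of blood cells, had 16.7, 7, 5.7, 6.6 and 6.4 on the stem Leydig arrays, 647.2 to 865 on progenitor, 274.9 to 733.7 on immature, 52.6 to 162.9 on adult and 964.8 to 1025.4 on bone stem arrays (margin -2.32 ± 0.25, adjusted p = 5.19e-06). Ptprc, the pan-leukocyte antigen CD45, averaged 11.3 ± 3.94 (SD, n = 5) in stem Leydig cells, 55.4 in adult Leydig cells and 291 in bone stem cells (margin -1.33 ± 0.27, adjusted p = 0.00412, and 0.133 with a pseudocount of 64). Tyrobp, a signalling adaptor of myeloid and natural killer cells, averaged 18.1 ± 4.48 in stem Leydig cells, 68.7 in adult Leydig cells and 1992 in bone stem cells (margin -1.22 ± 0.23). For these 3 genes adult Leydig cells were the nearest group.

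The tetraspanin Cd53 averaged 26.2 in stem Leydig cells and 109 to 943 in the other groups (margin -1.48 ± 0.22), and Fcer1g, the common chain of Fc receptors, averaged 60.9 in stem Leydig cells and 215 to 2881 in the other groups (margin -1.54 ± 0.25). The macrophage mannose receptor Mrc1 averaged 25.2 in stem Leydig cells and 75.8 to 667 in the other groups (margin -1.19 ± 0.26, adjusted p = 0.0085, and 0.0926 with a pseudocount of 64). Csf1r, the receptor that macrophages need for growth, averaged 20.0 in stem Leydig cells, 56.7 to 89.4 in the later stages and 522 in bone stem cells. Its call (margin -0.98 ± 0.26, adjusted p = 0.0381) was lost under 19 of 34 alternatives. Removal of any stem Leydig or progenitor array, of immature replicate 1, 3 or 4, or of adult replicate 4 ended it, with adjusted p from 0.0514 to 0.159.

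Leukocytes also express the chemokines and immune genes given next, and their part in these results was not tested. Ccl4, a chemokine of activated macrophages and lymphocytes, had 19.6, 14, 19.6, 27.1 and 14.7 on the stem Leydig arrays and 124.1 to 799.5 on the others (margin -2.60 ± 0.30, adjusted p = 3.04e-05). Its relative Ccl3 had 20.5 to 33.5 on the stem Leydig arrays and 106 to 323.3 on the others (margin -2.12 ± 0.28). Il18, an interleukin-1 family cytokine, had 22.9, 32, 26.2, 28.5 and 29.1 on the stem Leydig arrays, 352.2 to 556.3 on the later Leydig arrays, and 230.1, 196.1 and 159.7 on the bone stem arrays (margin -2.26 ± 0.13, adjusted p = 1.23e-09). No stem Leydig array overlapped another group in any of these 3 genes, which for Ccl4 was a condition of its choice.

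Of 29 interferon-response and antigen-presentation genes, 4 were called lower and 0 higher, against 2.34% and 2.64% of all genes. In 18 the stem Leydig mean was the lowest, against 23.4% of all genes, and the list median was -1.12. The immunoproteasome subunit Psmb9 had 60.3, 59.9, 81, 68 and 55.1 on the stem Leydig arrays, 928.3 to 1630.8 on the later Leydig arrays, and 362, 208.9 and 206.7 on the bone stem arrays (margin -1.73 ± 0.15, adjusted p = 2.06e-07). Psmb8, the neighbouring immunoproteasome gene, averaged 163 ± 32.4 (SD, n = 5) in stem Leydig cells, 952 in progenitor, 1211 in immature and 2163 in adult Leydig cells and 363 in bone stem cells (margin -1.10 ± 0.16). Both subunits averaged most in adult Leydig cells. Tap1, the peptide transporter that feeds class I molecules, averaged 51.4 ± 8.08 in stem Leydig cells and 115 to 151 in the other groups (margin -0.95 ± 0.14, adjusted p = 0.000148, and 0.0633 with the mean of its probe sets). Isg15, a ubiquitin-like interferon target, averaged 22.5 ± 8.50 in stem Leydig cells and 44.9 to 110 in the other groups, and its call (margin -0.69 ± 0.19, adjusted p = 0.0419) was lost under 24 of 34 alternatives. Removal of any single array other than stem Leydig replicate 3 or immature replicate 1 or 4 ended it, with adjusted p from 0.0507 to 0.144.

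Lists without a call were those of testosterone synthesis, of bone, cartilage and fat lineage genes (0 of 29), of immediate early and heat shock genes (0 of 25), and of markers of germ cells (0 of 17), Sertoli cells (0 of 12) and erythroid and bone marrow cells (0 of 10). Germ cell markers summed to 359.6 to 419.4 on the stem Leydig arrays, against 1985.2 to 4857.8 on the adult arrays and 359.5 to 485.2 on the bone stem arrays. Sertoli cell markers summed to 2659.3 to 4044.8 on the stem Leydig arrays and overlapped those of each other group. Erythroid markers summed to 43.4 to 87.7 on the stem Leydig arrays, 3477.5 to 5359.5 on progenitor, 2515.3 to 5406.2 on immature, 302.3 to 738.2 on adult and 46.0 to 59.8 on bone stem arrays.

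The 5 stem Leydig arrays did not agree equally well on the higher genes. The median SD over these arrays was 0.25 log2 units for the 375 genes called higher, against 0.20 for all genes. These SDs are not like for like, because the pseudocount damps the spread of dim probe sets. The higher genes had a median stem Leydig mean of 229, while the median signal of these arrays was 21.4 to 24.6. Replicate 3 was the lowest of the 5 in 121 of the 375 genes and the highest in 83, and replicate 1 was the lowest in 104 and the highest in 95. Replicate 5 was the lowest in 21 and the highest in 47. Among the 93 called genes named here, 68 kept their call without each of the 19 arrays in turn, and 50 kept it under all of the alternatives tried.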

How the data were processed

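The deposited values are one intensity per probe set on each of 19 Affymetrix rat arrays, made by the authors with the MAS5 algorithm in GCOS, per the submitters' processing notes, which give no version. The files showed a trimmed mean signal of 99.99 on each array, so levels are relative to that scale. Per the labels' protocols, total RNA was taken with Trizol and an RNeasy column and 6 ug of it was made into biotin-labelled cRNA. No detection calls were used, and the number of arrays limits the precision. Of 31099 probe sets, 57 controls were left out. GEO's platform annotation gave 1 symbol for 20826 of the rest, several for 436 and none for 9780. Of those with 1 symbol, 20758 were matched to RefSeq by gene ID. Each of the 14217 genes was represented by its brightest probe set on average. No other probe set was called for Bdnf, Galnt16, Lef1, Il1rl1, Col12a1, Plbd1, Slc1a3 and Igf1, which kept their call with the mean of their probe sets. The same was true of Zfpm2, Fgfr2, Cdkn2c, Tap1 and Sox4, except that with that mean they lost the call. Nrg1 had 8 probe sets, of which 1 other was called.

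The main model was fitted with limma 3.58.1 (R 4.3.3) on log2(signal + 16), with 5 group means and an intensity trend. Each of 31042 probe sets got the largest of 4 p-values (1 where signs differed), adjusted by Benjamini-Hochberg. Simulated data gave all groups a common mean, and changes were placed only in probe sets brighter than the median, so recovery in dim ones was not tested. Changes of 1 log2 unit in stem Leydig cells alone were recovered in 64% and changes of 2 in 96% of 50 probe sets each. Changes shared with bone stem cells were called in 0%, which the rule largely fixes, since both stem groups then have the same true mean. The members and the 27 gene lists (622 measured genes) were chosen with earlier results of these data known. Genes were named by rule: the 16 largest margins on the higher side and the 12 largest on the lower side among genes with no array overlap (on the lower side with all other means at 100 or more), leading called members of each list, 14 fixed markers, and every other called list member. Of 106 named genes, 60 were called higher and 33 lower. Normalization, pseudocount, filters, fits and left-out arrays were varied.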

Additional observations from a re-analysis of the deposited data

Results flagged for a closer look

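In 18 of 318 groups of 4 or 5 arrays tested among the named genes, 1 array stood far from the rest of its group by Dixon's criterion, which chance alone passes in about 1 of 20 groups. On the stem Leydig arrays, replicate 3 stood apart for Mt2A (241.4 against 81.4 to 104.8), Pdgfra (448 against 758.9 to 929.6) and Nr5a1 (96.3 against 70.5 to 75.1). Stem Leydig replicate 1 did so for Nes (146.6 against 248.5 to 283.9) and Laptm5 (16.7 against 5.7 to 7), and replicate 4 for Xdh (90 against 36.1 to 47.9). Of these 6 genes, Pdgfra and Nr5a1 were not called, and in the other 4 the array still lay clear of every other group. For Mt2A and Xdh that was a condition of their choice.

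Immature replicate 4, which also correlated better with the progenitor arrays, stood apart for Angptl4 (747.6 against 1330.3 to 1432.7), Psmb8 (853.3 against 1306.3 to 1357.8), Gli1 (346.2 against 191 to 201.4), Nr2f2 (1365.3 against 940.9 to 957.1) and Col4a2 (650 against 396 to 426.5). In the other immature arrays, replicate 2 stood apart for Fgfr2 (413.1 against 360.7 to 368.5) and replicate 1 for Ccnd2 (18.6 against 46.3 to 53.5). Among the adult arrays, replicate 1 stood apart for Bdnf (7.7 against 1 to 1.6) and Ccnd2 (43.2 against 28.1 to 30), replicate 2 for Cdkn2c (137.8 against 168.2 to 172.8), and replicate 3 for Igf1 (3140.6 against 2461.4 to 2538) and Pdgfra (2149.9 against 1749.5 to 1793).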

How the results depend on the processing

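The choices below are 34 alternatives, and none of the 93 called named genes changed direction under any of them. The counts of 375 higher and 333 lower genes became 626 and 601 with array weights, 163 and 126 with a 2-fold minimum, and 1907 and 2103 where bone stem cells were left out of the comparison. With each contrast adjusted on its own, 542 genes were higher and 540 lower. Without single arrays the counts ran from 262 to 389 higher (262 without bone stem replicate 2) and from 244 to 358 lower. Replicate numbers did not pair the arrays: the mean correlation of deviations was 0.017 for same-numbered pairs (33 pairs) and -0.0049 for others (110 pairs). A replicate block gave 255 higher and 227 lower genes, of which 251 and 227 were among those of the main model. A pseudocount of 1 gave 271 higher and 378 lower, a pseudocount of 64 gave 431 and 239, quantile normalization 385 and 333, and median centring 332 and 254. Median centring shifted the stem Leydig difference of the median probe set by 0.1029 log2 units. The share of called genes that were higher was 53% in the main model, 53.6% with quantile normalization and 56.7% with median centring. Hsd3b1 was called lower with quantile normalization (adjusted p = 0.0125), with a pseudocount of 1 (0.0358) and with each contrast adjusted on its own. Of the 93 called named genes, 25 lost the call without at least 1 array and 11 lost it under 10 or more alternatives. Dim genes limit the reading, since 46 of the higher genes had a stem Leydig mean under 50 and no detection calls were used.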

Other observations

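Cyp11a1, which makes the first steroid from cholesterol, averaged 15.7 in stem Leydig cells, 2302 in progenitor, 2292 in immature and 4206 in adult Leydig cells and 15.4 in bone stem cells, and was not called.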
